A study of Mus musculus with 17 samples.

Results

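Oligodendrocytes are the glial cells that wrap axons of the brain in myelin. The nuclei described here carry the deposited label Oligodendrocytes and lie in the deposited cluster 15, which holds the third largest number of nuclei with that label. There were 6603 of them, 8.77% of the 75282 nuclei labelled oligodendrocytes, in a series of 284074 nuclei from 17 mice. They are set beside the nuclei of the same label in the largest cluster (cluster 0, 37325 nuclei) and in the second (cluster 2, 29228 nuclei), which are summed within each animal and called the 2 larger clusters. The clusters were those deposited at a resolution of 0.4, and 24 nuclei of cluster 15 with another label were left out. At the finer resolution of 1.0, 6593 of the 6603 nuclei (99.8%) lay together in 1 cluster. Clusters are made from the RNA of the same nuclei, so differences in RNA between clusters are given below as description, with no test.

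Myelin is a stack of membrane held together by proteins such as Mbp and rich in cholesterol. Oligodendrocytes arise from precursors through a newly formed stage that expresses Enpp6 and Bcas1. They then reach mature states that differ in their RNA, among them a state with Klk6 and states with Ptgds and Il33. Malat1 is an abundant noncoding RNA of nuclear speckles, which does not leave the nucleus, and it is the target of the antisense oligonucleotide given in this study.

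The mice, all female and 2.3 months of age, carried a homozygous knock-in of human TfR, the transferrin receptor, labelled hTfR KI HOM, and single nuclei came from the posterior part of the brain. The 4 groups received 4 intravenous doses over 24 days, a dose a week, and the tissue was collected 72 hours past the final dose. They were saline (n = 4), Malat1 ASO at 2 mg per kg (n = 4), the antisense oligonucleotide in free form, anti-TfR:Malat1 at 50 mg per kg (n = 6), whose name joins an antibody against TfR to Malat1, and OTV:Malat1 at 50 mg per kg (n = 3). The saline samples carry the same dose label of 50 mg per kg, taken here as no dose of a compound. An OTV, or oligonucleotide transport vehicle, is known as an engineered antibody fragment that binds TfR and carries an oligonucleotide across the blood-brain barrier. The comparisons asked how far each compound changed Malat1 in these nuclei, and the first 3 of them, against saline, share the saline animals.

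Each animal gave 13841 to 18365 nuclei and 55393588 to 79866411 unique molecular identifiers (UMIs, counted RNA molecules) in all. The third cluster contributed 117 to 1040 nuclei and 284872 to 2912742 UMIs per animal, 17842542 UMIs in sum. Of its 6594 barcode sequences, 9 occurred in more than 1 library. The deposited metadata gave 4 batches, each with 1 saline, 1 Malat1 ASO and 1 or 2 anti-TfR:Malat1 animals, and OTV:Malat1 animals were in batches 2, 3 and 4 only. Levels are given as CPM, a gene's UMIs scaled to a fixed total of UMIs in the summed nuclei (counts per 1000000), and log2 differences between clusters are of CPM + 1.

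The marker genes of the label were high. Mbp, the myelin basic protein, stood at a mean of 5267 CPM in the third cluster and ranged over the 17 animals from 4496 to 5962 with a median of 5216. St18, a transcription factor of the oligodendrocyte lineage, stood at 4632 CPM and Mog, a glycoprotein of the outer myelin surface, at 1454 CPM. In neurons of the same libraries, summed with those of a single deposited cluster left out, the 3 genes were at 136, 112 and 32.9 CPM. Over all nuclei, which differ in depth between the clusters as given below, all 3 were also slightly higher than in the 2 larger clusters. Mbp was at 4209 CPM there and higher in the third cluster in 17 of 17 animals, by a median log2 difference of 0.33. St18 was higher in 17 animals by 0.19 and Mog in 16 animals by 0.10. Every nucleus of the third cluster held a UMI of Mbp, and after thinning to 500 UMIs per nucleus the share was 90.6%, against 87.3% in the largest cluster.

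Markers of other cell types were low. The summed level of 16 neuronal genes was 923 to 2249 CPM (median 1476) in the third cluster and 1408 to 4104 (median 2395) in the 2 larger clusters. It was 50841 in the same set of neurons, and it was lower in the third than in the larger clusters in 17 of 17 animals. The summed level of 10 microglial genes was 34.6 to 72.8 CPM, against 9649 in microglia. Summed levels were 270 to 422 CPM over 10 astrocyte genes, 98.3 to 169 over 10 genes of oligodendrocyte precursors and 3.71 to 16.9 over 12 vascular genes. Of these lists the neuronal one is the most abundant here, and it took a smaller share of the RNA than in the larger clusters.

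What set the third cluster apart in the deposited metadata was depth and the share of doublet calls. Its nuclei had a median of 2477 UMIs and 1358 genes, against 1457 UMIs and 913 genes in the largest cluster and 945 UMIs and 657 genes in the second. The median score of the deposited cell type prediction was 0.969, against 0.904 and 0.815. The authors' doublet call, which marks droplets thought to hold more than 1 nucleus, covered 1961 of the nuclei (29.7%), against 518 (1.39%) in the largest and 51 (0.174%) in the second cluster. The share of doublet calls ranged from 5.30% to 53.8% over the animals. It was 32.8% to 40.7% with OTV:Malat1, 17.2% to 53.8% with anti-TfR:Malat1, 5.30% to 44.6% with Malat1 ASO and 16.2% to 34.1% with saline, so the groups overlapped. The main values below are therefore also given among nuclei of 1500 to 3000 UMIs, called the shared depth range. It narrowed the gap in depth without closing it, with medians of 2346 UMIs in 5061 nuclei of the third cluster and 1714 UMIs in 16651 nuclei of the larger clusters.

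Among 3779 genes of 50 or more mean CPM in either class of nuclei, 255 (6.75%) were higher in the third cluster than in the 2 larger clusters in all 17 animals and 423 (11.2%) were lower in all 17. In the shared depth range those counts were 50 and 50, of which 39 and 36 were among the genes counted before. Without the doublet calls they were 206 and 403, against the largest cluster alone 150 and 316, and against the second alone 343 and 470.

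The 15 genes with the largest median differences upwards were led by Prom1, which encodes the membrane protein prominin. Prom1 (chromosome 5, 43993620 to 44102032, minus strand, mm10) was at 22.8 to 112 CPM over the animals with a median of 42.5, against 0.66 to 6.43 in the larger clusters, a median log2 difference of 3.85. The 2 ranges did not overlap. The noncoding RNA 9630013A20Rik (chromosome 14, 84458639 to 84476424) followed at 34.7 to 519 CPM against 10.2 to 63.8, with a median difference of 2.74. It is annotated as antisense, and since no source used here gives the strand of the counting its level is uncertain. Pdzrn3, a ubiquitin ligase of cell junctions, was higher by 2.63, Kank1, which binds to focal adhesions and the actin cortex, by 2.45, and Abr, a regulator of small GTPases, by 2.36. The list went on with Gm32122 (2.04), Ctps, a CTP synthase (2.03), Pip5k1b, a lipid kinase (1.97), Nckap5 (1.95), Dlc1, a GTPase-activating protein (1.86), A530053G22Rik (1.71), Man1a, a mannosidase of the Golgi (1.54), Sema5a, a semaphorin of axon guidance (1.52), Cldn14, a claudin of tight junctions (1.52), and Aff3 (1.51).

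The 15 leading genes downwards differed less, by median log2 values of -1.20 to -0.97. In the shared depth range the medians shrank to between -0.625 (Farp1) and -0.34 (Ly6h), with Apoe at -0.55. There 7630403G23Rik was higher in the third cluster in 4 animals. The long noncoding RNA 7630403G23Rik was at 45.2 CPM against 101, and Apoe, the lipid carrier, at 58.2 to 212 CPM (median 113) against 128 to 408 (median 251), lower in 17 of 17 animals by -1.06. Tubb2a, Caly, Pcp4, Ly6h, Stmn2, Tmem59l, C1qtnf4 and Rab3a were lower by -1.10 to -0.97, and several of these are known from neurons (Stmn2 a tubulin-binding protein of axons, Rab3a a GTPase of synaptic vesicles). In the neurons here, Stmn2, Ly6h and C1qtnf4 were higher than in the larger clusters, Stmn2 at 144 against 108 CPM. Rab3a, Caly, Tmem59l, Tubb2a and Pcp4 were lower in neurons than in the larger clusters, Rab3a at 38.7 against 96.7 CPM. Farp1, Fbxw15 and 5033421B08Rik, the last annotated as antisense, and the ribosomal protein genes Rps19 and Rpl8 completed the list. The summed neuronal list was also lower in the third cluster, and its part in the result was not tested.

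**Figure D1:**
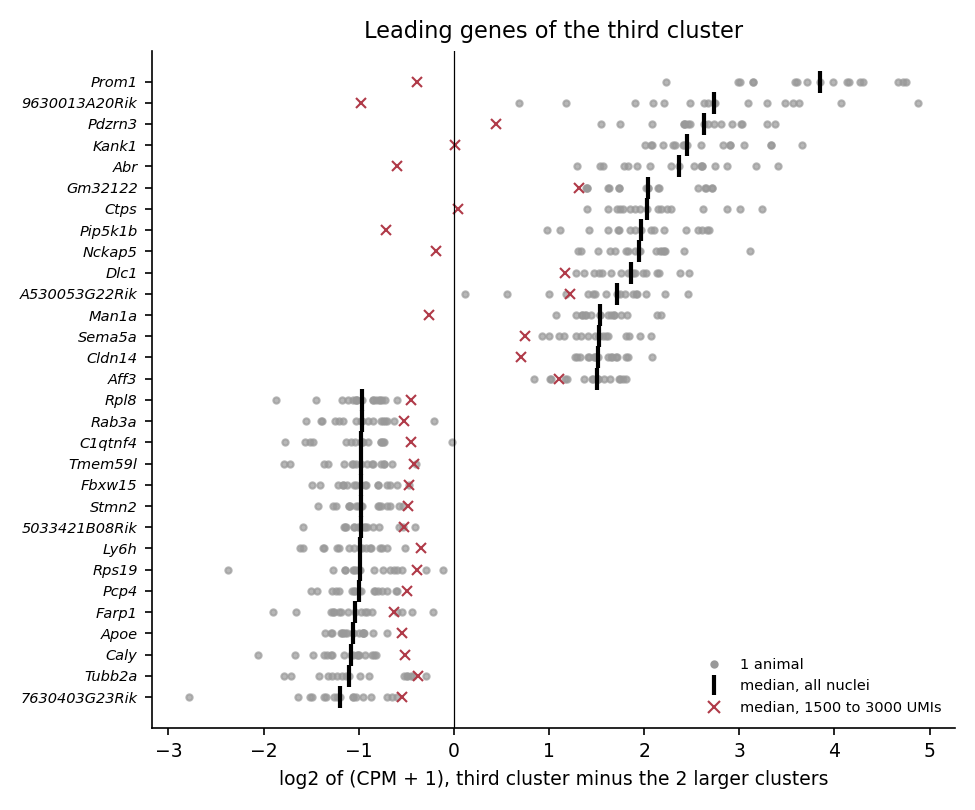
Difference in log2 (CPM + 1) between the third cluster and the 2 larger clusters for the 15 leading genes in each direction, with a grey point for each of the 17 animals, a black bar for the median over all nuclei and a red cross for the median at 1500 to 3000 UMIs. The crosses of Prom1 (-0.39) and 9630013A20Rik (-0.97) lie left of 0, while those of Gm32122 (1.32) and Aff3 (1.11) stay to the right, and all 15 lower genes keep a cross below 0.

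In the shared depth range the 15 higher genes fell into 2 sets. Gm32122 stayed higher by a median of 1.32, A530053G22Rik by 1.22, Dlc1 by 1.17, Aff3 by 1.11, Sema5a by 0.75 and Cldn14 by 0.70, each in 15 to 17 animals. The other 9 genes were higher in only 3 to 10 animals, with medians between -0.97 (9630013A20Rik) and 0.44 (Pdzrn3). For these 9, the high level of the cluster came from its deepest nuclei. Prom1 had 0 UMIs in the 629 nuclei of the third cluster with 1000 to 2000 UMIs, where 3 UMIs, the limit that a count of 0 allows, would be 2.54 CPM. It was at 2.37 CPM from 2000 to 2500 UMIs, 10.8 from 2500 to 3000, 60.6 from 3000 to 4000 and 224 in the 453 nuclei of 4000 or more. Nckap5 went from 54.9 to 1343 CPM over the same steps. The few deep nuclei of the larger clusters, 106 with 2500 to 3000 UMIs, held more of both than the third cluster did in the same step, with 191 against 10.8 CPM of Prom1 and 971 against 171 CPM of Nckap5.

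Within the third cluster, genes of the first set followed depth in different ways. Cldn14 went from 167 CPM at 1000 to 2000 UMIs to 358 CPM at 4000 or more and Sema5a from 77.8 to 173 CPM. Gm32122 was between 47.5 and 79.6 CPM up to 4000 UMIs and at 24.8 CPM above, Dlc1, Aff3 and A530053G22Rik were also lowest above 4000, and Enpp6, which is not of the set, went from 364 CPM in the shallowest step to 113 CPM in the deepest. In the larger clusters all 6 genes of the set climbed with depth up to 2500 UMIs. From the step of 500 to 1000 UMIs to that of 2000 to 2500, Gm32122 went from 5.61 to 30.3 CPM there and Aff3 from 35.2 to 113. From 2000 to 2500 UMIs the third cluster had 2801 nuclei and the larger clusters 2248. All 6 genes were higher in the third cluster in this step, with Gm32122 at 47.5 against 30.3 CPM, Aff3 at 154 against 113 and Sema5a at 92.2 against 75.6. From 2500 to 3000 UMIs the order of Cldn14 was turned, at 158 CPM against 276 in the 106 nuclei of the larger clusters. The share of doublet calls moved with depth too, from 11% at 1000 to 2000 UMIs to 61.6% at 4000 or more.

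**Figure D2:**
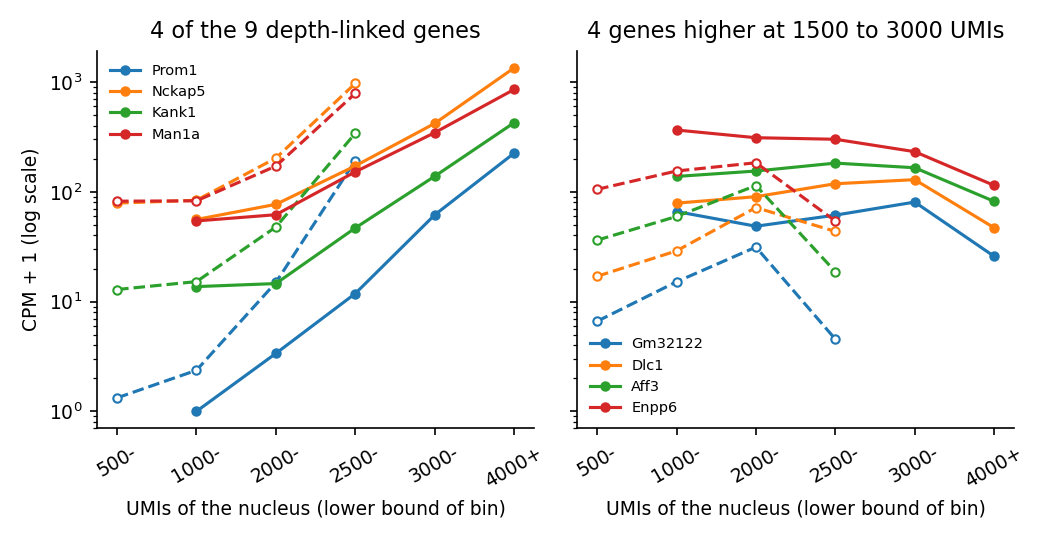
CPM + 1 on a log axis against the UMIs of the nucleus, in steps named by their lower bound, for 4 of the 9 genes that were not higher at 1500 to 3000 UMIs (left) and 4 genes that were higher there (right), summed over all animals. Solid lines with filled points are the third cluster and dashed lines with open points the 2 larger clusters; on the left every line climbs with depth and the dashed lines lie at or above the solid ones of the same gene, and on the right the solid lines lie above the dashed ones.

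The gene lists gave the makeup of the third cluster by role. Among 6897 genes of 20 or more mean CPM, the background was 305 (4.42%) higher in all 17 animals and 628 (9.11%) lower in all 17, with a median log2 difference of -0.05. Of the 18 myelin genes all passed that minimum and 6 were higher in every animal, with a median of 0.04 over the list. Among those 6 were Mbp, Mobp (0.45), Ugt8a, an enzyme of galactolipid synthesis (0.19), Plekhb1 (0.23) and Mag, a glycoprotein of the inner myelin membrane (0.13). Cd9, a tetraspanin, was lower in every animal (-0.52). In the shared depth range Mbp and Mobp were higher by 0.09 and 0.15. In narrower steps, summed over all animals, Mbp was at 4871 against 4793 CPM from 2000 to 2500 UMIs. From 2500 to 3000 UMIs, with 106 nuclei of the larger clusters, Mbp was lower in the third cluster, at 4965 against 6544 CPM. Mog was there at 1372 against 1842 CPM, while St18 stayed higher at 4566 against 4234 CPM. Of the 14 genes of mature oligodendrocytes, 6 were higher in every animal and Aspa, which splits N-acetylaspartate, was lower (-0.20). Among 14 transcription regulators past the minimum, St18 and Zeb2 (0.09) were higher and Bach2 (-0.25) lower in every animal.

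Next came the lists of oligodendrocyte stages and states, with no test between lists. Of 9 genes of the newly formed stage past the minimum, 3 were higher in every animal and 0 lower, and the list median was 0.18, or 0.01 in the shared depth range. Enpp6, a choline phosphodiesterase transient in newly formed oligodendrocytes, was at 196 to 357 CPM (median 262) against 113 to 176 (median 143), and the 2 ranges did not overlap. Its median difference was 0.78 and remained 0.71 in the shared depth range. The other 2 were Sirt2 (0.47) and 9630013A20Rik, which were at 0.05 and -0.97 in the shared depth range, while Bcas1 stood at 871 CPM in both classes of nuclei. Precursor genes were low in both, with 0 of 4 past the minimum higher or lower in every animal.

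Klk6, a secreted protease that marks a mature state, was at 14.3 to 69.2 CPM (median 38.6) against 6.80 to 31.3 (median 16.6). It was higher in 17 of 17 animals by a median of 1.38, or 0.88 in the shared depth range. The level rests on 794 UMIs in all. Of the 7 genes of the Klk6 state past the minimum, Nkain2 (0.22) was also higher in every animal and Cd9 lower, and the list median was 0.18, or -0.0025 in the shared depth range. Among 11 genes of the state with Ptgds, 8 were lower in every animal, with a list median of -0.34, or -0.18 in the shared depth range. Ptgds, prostaglandin D synthase, was at 381 to 1484 CPM (median 882) against 719 to 2757 (median 1742), lower by -0.87. Il33, a nuclear alarmin, was at 218 to 391 CPM against 425 to 565, lower by -0.87 with no overlap of the ranges. Grm3 (-0.41), Car2 (-0.33), Qdpr (-0.37), Cryab (-0.51), Sec11c (-0.30) and Jph4 (-0.34) were the others. Anln went the other way, higher by 0.33 and in the shared depth range by 0.44. In the shared depth range Ptgds and Il33 were lower by -0.45 each, and Car2 stood at 0.01. In narrower steps of depth, summed over all animals, Il33 differed less. From 2000 to 2500 UMIs it was at 334 against 355 CPM, and Ptgds at 1085 against 1627. From 2500 to 3000 UMIs, with 106 nuclei of the larger clusters, Il33 was higher in the third cluster, at 279 against 163 CPM. Ptgds was there at 1108 against 1120 CPM.

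Other roles differed in single genes. Of 20 genes of axon contact and cell adhesion, Nfasc, which forms the contact beside the node (0.48), Ank3, an ankyrin (0.37), and Pcdh9, a protocadherin (0.34), were higher in every animal, and Magi2 (-0.09) was among the lower ones. In the shared depth range Nfasc stood at -0.06 and Ank3 at -0.10. Of 7 iron genes past the minimum, the ferritin chains Fth1 (-0.57) and Ftl1 (-0.65) were lower in every animal, with -0.12 and -0.14 in the shared depth range. Among 13 nuclear long noncoding RNAs, Kcnq1ot1 was higher (0.57, and 0.45 in the shared depth range) and 6 were lower, Meg3 (-0.65) among them. Of 8 immediate early and stress genes, 4 were lower in every animal, Hsp90aa1 (-0.55), Hspa5 (-0.37) and Sgk1 (-0.59) included. The disease-associated list had Klk6 higher and Il33 and Sgk1 lower of 4 genes. Of 20 splicing and speckle genes 2 were lower, Srsf7 (-0.26) and Srsf10 (-0.28). The counts were 0 higher and 0 lower of 12 cholesterol genes, 3 interferon genes, 3 p53 targets and 4 genes near Malat1. Neat1, the neighbour of Malat1 that builds paraspeckles, stood at 1099 against 1112 CPM, but in the shared depth range it was higher by a median of 0.16, in 16 of 17 animals. Tfrc, the mouse transferrin receptor gene, was at 10.1 against 12.4 CPM, with a median of -0.42, or -0.30 in the shared depth range.

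The 9 genes that followed depth were next counted per nucleus, a step chosen after their values had been seen and described without a test. Of the 6603 nuclei, 4339 held no UMI of any of the 9, and 583 (8.83%) held 4 or more of the 9, while 196 nuclei held 3 and 146 held 4, so the counts fell without a gap at the limit. In the 2 larger clusters 260 nuclei (0.391%) held 4 or more. These 583 nuclei had a median of 3819 UMIs, against 2432 in the rest of the third cluster, and 30.2% were doublet calls against 29.7%. They numbered 11 to 58 per animal, 5.48% to 20.5% of the nuclei of the third cluster.

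Nuclei with 4 or more of the 9 genes also differed from the rest in genes that the choice did not use. Some of the genes named here, such as Fam155a, Pcdh7 and Hapln2, lie outside the rules set for named genes. The share of all genes that differed as much is not given here, so no trait particular to these genes is read from the values. Among nuclei of 2500 to 4000 UMIs (299 against 2421), Fam155a was at 696 CPM against 39.8, Pcdh7, a protocadherin, at 1746 against 207, and Nfasc at 2872 against 760. Of the myelin genes, Mbp was at 7971 against 4907 CPM, Mobp at 2445 against 1301, and Opalin, a myelin sialoglycoprotein, at 913 against 318. These 3 do not stand for the whole list of myelin genes. Of the first set, Gm32122, A530053G22Rik, Dlc1 and Aff3 were low there, Sema5a stood at 91.8 against 117 CPM and Cldn14 was higher, at 345 against 147 CPM. Gm32122 had 0 UMIs in the 299 nuclei, which allows up to 3.06 CPM for counting error alone, against 78.5 CPM in the rest, A530053G22Rik was at 1.02 against 129 CPM. Of the newly formed stage, Enpp6 was at 10.2 against 304 CPM, Bcas1 at 845 against 874 and Sirt2 at 482 against 160. Klk6 was at 1.02 against 52.3 CPM, Anln at 24.5 against 620 and Hapln2, a link protein of the nodal matrix, at 14.3 against 293. Neat1 was at 87.7 against 1181 CPM, Apod, a lipid carrier, at 131 against 782, and Il33 at 74.4 against 295. Of genes that the choice did not use, the 260 nuclei of the larger clusters had 3070 CPM of Nfasc, 12.7 of Enpp6 and 65.4 of Neat1. The rest of the third cluster also held some of the 9 genes, with Nckap5 at 99.8 CPM and Man1a at 81.5 CPM, and the split by 4 genes fixes the contrast in these 9.

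The doublet calls were compared with the other nuclei of the third cluster. Over the 15 leading higher genes the log2 difference of doublet calls from the others ran from -1.74 (Gm32122) to 0.06 (Man1a), with Nckap5 at -0.06. Over the 15 leading lower genes it ran from -0.31 (Pcp4) to 1.42 (Farp1). The share of all genes lower in doublet calls is not given here, so no trait of the leading genes is read from these values. Cldn14 and Aff3 were lower in doublet calls in 17 of 17 animals, A530053G22Rik in 16, Gm32122 and Sema5a in 15 and Dlc1 in 13. Gm32122, for example, was at 21.2 CPM in doublet calls and 73.3 CPM in the others. 5033421B08Rik was higher in doublet calls in 17 animals, at 148 against 64.0 CPM. The summed neuronal list was at 1484 CPM in doublet calls and 1378 CPM in the others, and the microglial list at 53 and 52.4 CPM. Neither list set the doublet calls apart from the others by much.

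The share of oligodendrocytes that lay in the third cluster varied widely within every group. In the saline animals it was 20.1%, 13.6%, 4.36% and 4.61% for replicates 1 to 4. In Malat1 ASO it was 12.7%, 6.35%, 7.72% and 3.66%. It was 14.4%, 9.77%, 4.78%, 2.99%, 5.18% and 10.9% for replicates 1 to 6 of anti-TfR:Malat1, and 6.90%, 10.4% and 3.27% in OTV:Malat1. The group ranges overlapped, and the means were 10.7% ± 7.63 (SD, n = 4), 7.60% ± 3.78 (SD, n = 4), 8.02% ± 4.40 (SD, n = 6) and 6.86% ± 3.57 (SD, n = 3). Malat1 fell in OTV:Malat1 and had a lower mean in anti-TfR:Malat1, though there without passing the edgeR test, and no source used here says whether it entered the clustering. Cluster sizes were therefore tested only between Malat1 ASO and saline. There the difference was -3.07 percentage points (exact two-sided permutation p 0.571, adjusted p 0.681 over the 13 tests listed with Malat1 below). Within batches 1 to 4 that difference was -7.46, -7.23, 3.36 and -0.95.

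The 3 animals of batch 1 held 12.7% to 20.1%. Over the 14 animals without OTV:Malat1, chosen after the values had been seen, the share and the median UMIs per nucleus of the largest cluster had a Pearson r of 0.768 and a Spearman rho of 0.745. Two-sided tests by 100000 random permutations gave p 0.0019 for r and 0.0028 for rho. Both p are unadjusted and follow that choice of animals, so they serve as description. It is the only such relation computed across animals. Without the 2 animals farthest from the median depth, saline replicate 1 and anti-TfR:Malat1 replicate 4, r was 0.576. As deviations from batch means r was 0.635 (exact two-sided permutation within batches, unadjusted p 0.0234). In batches 1, 2 and 3, of 3, 3 and 4 animals, share and depth had the same order, and in batch 4 they did not.

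**Figure D3:**
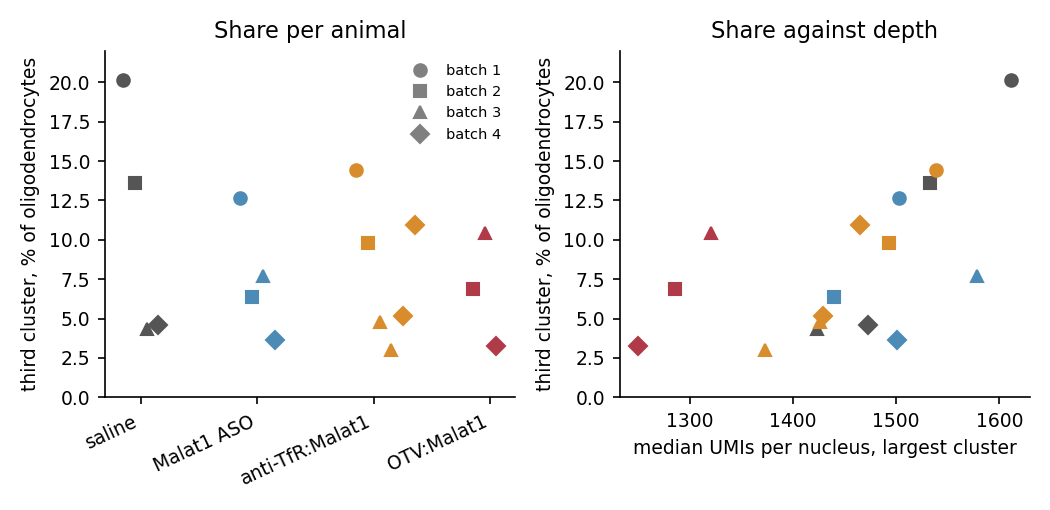
Share of oligodendrocytes in the third cluster, in percent, for each of the 17 animals by group (left) and against the median UMIs per nucleus of the largest cluster (right); colours are the groups of the left panel and symbols the batches. Saline replicate 1 stands highest at 20.1% and anti-TfR:Malat1 replicate 4 lowest at 2.99%, and the 3 OTV:Malat1 animals lie at the lowest depths.

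Malat1 was by far lower in OTV:Malat1 than in the other groups. Malat1 (chromosome 19, 5795690 to 5802672, minus strand, mm10) took 11.7%, 10.2%, 11.9% and 7.96% of the UMIs of the third cluster in saline replicates 1 to 4. In Malat1 ASO it took 11.1%, 9.93%, 12.1% and 7.16%. It took 6.47%, 7.30%, 9.96%, 9.11%, 6.18% and 6.34% in anti-TfR:Malat1. In OTV:Malat1 the values were 2.00%, 1.5% and 1.31%, all far below every animal of the other groups. The OTV:Malat1 mean was 1.61% ± 0.36 (SD, n = 3), 15.4% of the saline mean of 10.4% ± 1.82 (SD, n = 4). The anti-TfR:Malat1 mean was 7.56% ± 1.60 (SD, n = 6), 72.5% of saline, and the Malat1 ASO mean 10.1% ± 2.13 (SD, n = 4). Of the anti-TfR:Malat1 animals, 4 of 6 lay below every saline animal, and the Malat1 ASO animals overlapped with saline. Fewer nuclei with Malat1 and less Malat1 per nucleus cannot be told apart from sums, and the values per nucleus follow below.

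In edgeR's quasi-likelihood test over all genes, the log2 change of Malat1 was -2.86 (SE 0.20, adjusted p 9.4e-11) in OTV:Malat1 against saline. Against anti-TfR:Malat1 it was -2.36 (SE 0.18, edgeR adjusted p 2.4e-09), so Malat1 fell in both comparisons. In anti-TfR:Malat1 against saline the change was -0.50 (SE 0.15, p 0.0019 before adjustment), which did not pass after adjustment (edgeR adjusted p 1.00), and in Malat1 ASO it was -0.05 (SE 0.16, adjusted p 1.00). With no filter on low counts the anti-TfR:Malat1 change was -0.52 and passed (edgeR adjusted p 4.4e-06), while under the other alternatives its adjusted p was 0.292 to 1.00. Exact two-sided permutation of the single value log2(CPM + 1) gave -2.70 for OTV:Malat1 against saline (p 0.0571, the smallest that 3 against 4 animals allow) and -2.23 against anti-TfR:Malat1 (p 0.0238, the smallest possible). It gave -0.47 for anti-TfR:Malat1 (exact p 0.0381) and -0.06 for Malat1 ASO (exact p 0.714). Over 13 permutation tests, those of Malat1, of its difference between clusters and of the share of low nuclei in the 4 comparisons each and of the cluster share in 1, the first 3 had an adjusted p of 0.124. Within batches 2 to 4 the log2 difference of OTV:Malat1 from saline was -2.35, -2.98 and -2.60, and that from anti-TfR:Malat1 was -1.87, -2.66 and -2.25. Anti-TfR:Malat1 lay below saline by -0.85, -0.48, -0.32 and -0.35 in batches 1 to 4, and Malat1 ASO differed by -0.07, -0.04, 0.02 and -0.15. With labels moved only within batches the exact p were 0.25, 0.111, 0.0556 and 0.25, the first 3 being the smallest possible.

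**Figure D4:**
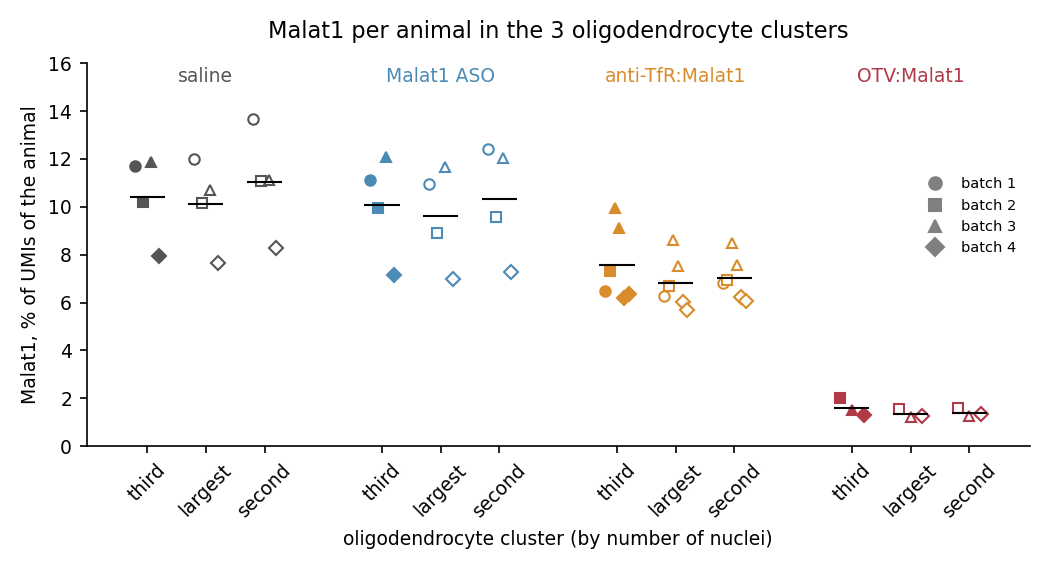
Malat1 as a percentage of the UMIs of each animal in the third cluster (filled) and in the largest and second clusters (open), by group, with a horizontal bar for the mean and symbols for the batch. In the third cluster the OTV:Malat1 animals lie between 1.31% and 2.00%, below the lowest saline animal at 7.96%, and in each group the 3 clusters lie at like levels.

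Whether Malat1 was higher or lower in the third cluster than in the larger clusters turned on the depth of the nuclei compared. Over all nuclei it was higher in 13 of 17 animals, from 1500 to 3000 UMIs in 4 of 17 and from 2000 to 2500 UMIs in 0 of 17. In the 2 larger clusters the means were 1.37% with OTV:Malat1, which is 13.2% of saline, 6.86% with anti-TfR:Malat1, 9.83% with Malat1 ASO and 10.4% with saline. The log2 difference between the third and the larger clusters of the same animal was -0.07, -0.03, 0.13 and 0.00 in saline and -0.02, 0.12, 0.04 and 0.01 in Malat1 ASO. It was 0.02, 0.11, 0.22, 0.27, 0.02 and 0.14 in anti-TfR:Malat1 and 0.35, 0.29 and 0.02 in OTV:Malat1. The OTV:Malat1 mean lay above saline by 0.21 (exact two-sided permutation p 0.114), with 2 of 3 animals above every saline animal. The anti-TfR:Malat1 mean lay above saline by 0.12 (exact p 0.0762, 3 of 6 above every saline animal) and Malat1 ASO by 0.03 (exact p 0.600). The gap between OTV:Malat1 and anti-TfR:Malat1 was 0.09 (exact p 0.357). Without the doublet calls the anti-TfR:Malat1 difference was 0.20 (exact p 0.0190) and the OTV:Malat1 difference 0.38 (exact p 0.0571, the smallest possible). From 1500 to 3000 UMIs the OTV:Malat1 and anti-TfR:Malat1 means lay 0.08 above saline each (exact p 0.114 and 0.124). From 2000 to 2500 UMIs OTV:Malat1 lay below saline by -0.20 (exact p 0.0571) and below anti-TfR:Malat1 by -0.30 (exact p 0.0238), both the smallest possible, from only 15 to 20 nuclei of the larger clusters in each OTV:Malat1 animal.

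In the edgeR fit with the animal as a block, 0 of 13613 genes (0%) changed differently in the third than in the larger clusters in any of the 4 comparisons. Unadjusted p under 0.05 numbered 569 for OTV:Malat1, 468 for anti-TfR:Malat1, 535 for Malat1 ASO and 506 between OTV:Malat1 and anti-TfR:Malat1. For Malat1 the difference was 0.22 in OTV:Malat1 (SE 0.06, p 7.4e-04 before adjustment, edgeR adjusted p 1.00) and 0.15 in anti-TfR:Malat1 (p 0.0067 before adjustment). With no filter on low counts 4, 2, 1 and 2 genes passed in the same order of comparisons, Malat1 among those of OTV:Malat1 (0.21, edgeR adjusted p 9.2e-07) and of anti-TfR:Malat1 (0.13, adjusted p 0.036) against saline. The others, named after their values were seen, were Nckap5, Fam155a and Kirrel3 in OTV:Malat1, Plcb1 in anti-TfR:Malat1, Dscam in Malat1 ASO, and Plcb1 and 9630013A20Rik in OTV:Malat1 against anti-TfR:Malat1. Without OTV:Malat1 replicate 3 the Malat1 difference of OTV:Malat1 was 0.32 and passed (edgeR adjusted p 0.0112), and without replicate 2 Nckap5 passed in its place (1.03, adjusted p 6.6e-05).

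Per nucleus, the loss of Malat1 in OTV:Malat1 reached nearly all nuclei of the third cluster. Each nucleus was thinned to 500 UMIs, which left out 0 nuclei, and was called low below 32 UMIs of Malat1, which is percentile 10 of the saline nuclei with the 4 animals weighted equally. Low nuclei made up 2.31%, 7.54%, 1.73% and 26.8% in the saline animals and 97.8%, 99.2% and 100% in the OTV:Malat1 animals. In anti-TfR:Malat1 they made up 51.5%, 36.3%, 11.2%, 24.8%, 58.7% and 50.6%, and in Malat1 ASO 4.86%, 9.32%, 0.99% and 43.2%. The anti-TfR:Malat1 range reached from inside the saline range to far above it, and saline replicate 4 and Malat1 ASO replicate 4, both of batch 4, stood apart from their groups. Against saline the share was higher by 89.4 percentage points in OTV:Malat1 (exact two-sided permutation p 0.0571, the smallest possible), by 29.3 in anti-TfR:Malat1 (exact p 0.0286) and by 4.99 in Malat1 ASO (exact p 0.629). Between OTV:Malat1 and anti-TfR:Malat1 the gap was 60.1 points (exact p 0.0238, again the smallest possible). Adjusted over the 13 tests, the lowest of these p is 0.124. The limit was set from the saline animals and was not reset when labels were moved, so the p against saline are approximate.

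The 583 nuclei with 4 or more of the 9 genes held more Malat1 than the rest of the third cluster in every group. In saline they had 17%, 14.3%, 15.8% and 9.48% of UMIs in Malat1, against 11.1%, 9.59%, 10.9% and 7.58% in the rest of the same animals. In OTV:Malat1 they had 3.55%, 2.82% and 2.20%, against 1.62%, 1.37% and 1.20%. The log2 difference was 0.88 to 1.13 with OTV:Malat1, 0.22 to 0.70 with anti-TfR:Malat1, 0.58 to 0.65 with Malat1 ASO and 0.32 to 0.61 with saline, above 0 in 17 of 17 animals. Among nuclei of 2500 to 4000 UMIs it was 0.67 to 0.94, -0.20 to 0.62, 0.46 to 0.66 and 0.25 to 0.51 in the same order, from 10 to 28 such nuclei per animal. The OTV:Malat1 values did not overlap with those of the other groups in either case. Since the split was made after the values had been seen, no test was run.

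**Figure D5:**
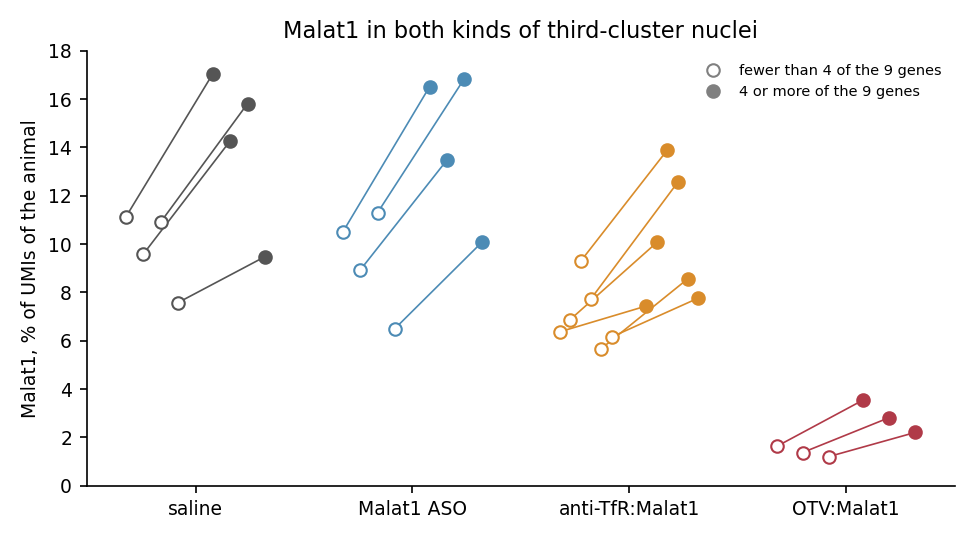
Malat1 as a percentage of UMIs in nuclei of the third cluster with fewer than 4 of the 9 genes (open) and with 4 or more (filled), joined within each of the 17 animals, by group. The filled point lies above the open point in every animal, from 2.20% against 1.20% in OTV:Malat1 replicate 3 to 17% against 11.1% in saline replicate 1.

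Doublet calls held less Malat1 than the other nuclei of the third cluster in 16 of 17 animals. The log2 difference was -0.66 to -0.42 with OTV:Malat1, -0.41 to -0.19 with anti-TfR:Malat1, -0.19 to 0.03 with Malat1 ASO and -0.13 to -0.05 with saline, again with no test. The ranges of both conjugates lay wholly below that of saline.

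Genes other than Malat1 did not pass the threshold. Of 9183 tested in edgeR, 0 rose and 0 fell (0%) in each of the 4 comparisons, with 369 genes at an unadjusted p under 0.05 in OTV:Malat1 against saline, 242 in anti-TfR:Malat1, 190 in Malat1 ASO and 527 between OTV:Malat1 and anti-TfR:Malat1. DESeq2 called 0 genes in the 3 comparisons with saline and 1, Wwox, in OTV:Malat1 against anti-TfR:Malat1, named here after its value was seen. Wwox, an oxidoreductase gene, had means of 391 and 528 CPM, a log2 difference of -0.60 (DESeq2 adjusted p 0.0076) that in edgeR was -0.59 (adjusted p 0.121). With no filter on low counts edgeR called 6, 6, 4 and 14 genes in the same order of comparisons. Neat1 was at 1180, 1066, 981 and 823 CPM in saline and at 1428, 1515 and 1211 CPM in OTV:Malat1, in totals that include Malat1. CPM of all other genes also go up where Malat1 leaves the total, which the edgeR scaling allows for. In edgeR the Neat1 value was 0.28 against saline (SE 0.11, p 0.0229 before and 1.00 after adjustment) and 0.29 against anti-TfR:Malat1 (p 0.0102 before, adjusted p 0.859). The marker genes showed values near 0 in OTV:Malat1 against saline, with Mbp at -0.06 (SE 0.11), Mog at -0.01 (SE 0.12) and St18 at -0.11 (SE 0.09). Tfrc was at -0.77 (SE 0.37) from means of 7.12 and 11.4 CPM, with an adjusted p of 1.00 like the markers. Its level rests on 175 UMIs in the third cluster over all animals, and how the human TfR knock-in bears on this count was not tested.

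The lists told the same for each role. In OTV:Malat1 against saline 0 genes of any list rose or fell in the main fit. With no filter on low counts Sgk1, of the disease-associated and stress lists, fell by -1.03 (edgeR adjusted p 0.0029). The 18 myelin genes had a median log2 of -0.06 and ranged from -0.21 to 0.31, beside a median of 0.00 over all genes. Mobp, for example, was at -0.21 and Mag at 0.04. The 10 genes of the newly formed stage tested had a median of 0.04 (Enpp6 -0.02, Bcas1 -0.03), the 8 of the Klk6 state 0.12 and the 12 of the Ptgds state -0.11. The 20 cholesterol genes had a median of 0.21 with Hmgcs1, which makes a precursor of cholesterol, at 0.45 (edgeR p 0.0605 before adjustment). The 8 genes near Malat1 had a median of 0.28, with Frmd8 at 0.30 and Neat1 as above. The 20 splicing and speckle genes had a median of 0.01 (Srrm2 0.22, Son 0.17), the 12 iron genes -0.04 (Trf 0.02, Fth1 0.03), the 4 interferon genes 0.17 and the 7 p53 targets 0.21. Medians of the lists in anti-TfR:Malat1 against saline ranged from -0.34 (disease-associated) to 0.27 (neuronal), and in Malat1 ASO from -0.14 (disease-associated) to 0.25 (astrocyte). Of the 30 leading genes of the cluster 0 changed in any comparison. Their values against saline lay between -0.44 and 0.67 in OTV:Malat1 with a median of 0.33, beside 0.00 over all genes, with Prom1 at 0.62 (SE 0.47) and Gm32122 at 0.49 (SE 0.35). The median of the 30 genes was 0.04 in anti-TfR:Malat1, 0.00 in Malat1 ASO and 0.21 between OTV:Malat1 and anti-TfR:Malat1.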

How the data were processed

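Single nuclei from 17 libraries, 1 per animal, were sorted into the reverse transcription mix and sequenced, per the labels' protocols. The submitters' processing notes name Cell Ranger 6.0.1, Seurat 4 and the genome build mm10. The deposited matrix held integer UMI counts of 26131 genes in 284074 nuclei, 1099241149 UMIs, and every nucleus summed to its total in the deposited metadata. The metadata also gave the authors' clusters and labels, and scores between 0 and 1, written here as fractions, for the cell type prediction and doublets. The doublet caller, the label tool, the meaning of batch and the strand of counting are not given in the sources used here. Of the metadata columns 6 were not used, and 10044 of 273792 barcode sequences occurred in more than 1 library.

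Counts of the chosen nuclei were summed per animal (20 nuclei or more required, met by all 17) with doublet calls kept. The 4 groups were fitted together with edgeR's quasi-likelihood test after filterByExpr and TMM, with Benjamini-Hochberg adjustment over all genes and a threshold of 0.05. The comparison between clusters across treatments added the animal as a block. Single values were tested by exact two-sided permutation (the smaller tail doubled). For shares, nuclei were thinned to 500 UMIs. The code was tested on simulated counts. Over the genes fitted, log2 CPM of animals correlated at 0.888 to 0.980.

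The nuclei, gene lists and tests were chosen with earlier results of these data known. Named genes were Malat1, Neat1, Tfrc and the 3 markers, the 15 genes each way with the largest median difference between clusters (50 or more mean CPM and 1 sign in all animals), up to 10 genes each way past the threshold with no overlap in each comparison (there were none), and members of 21 lists past the threshold or highest in CPM. Some genes, such as Fam155a, Pcdh7 and Hapln2 and those called only under an alternative, were named outside these rules. Gene names were matched to GENCODE M21 (GRCm38) for 25511 genes (97.6%). The labels call the 17 animals separate samples. Some items are not reported here. Counting intervals and limits cover counting error only. Fits used edgeR 4.0.16, DESeq2 1.42.0 and limma 3.58.1 under R 4.3.3, and the rest scipy 1.17.1, pandas 2.3.3, numpy 2.4.6 and matplotlib 3.10.9 under Python 3.11.15. Alternatives were DESeq2, no filter on low counts, RLE factors, library sizes without Malat1, only the groups compared, batch or replicate as a block, other choices of nuclei, and each animal left out in turn.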

Additional observations from a re-analysis of the deposited data

How the results depend on the processing

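Malat1 kept its direction and its call in OTV:Malat1 against saline (-3.09 to -2.68) and against anti-TfR:Malat1 (-2.58 to -2.24) under every alternative run. Against saline in anti-TfR:Malat1 it was -0.61 to -0.43 with 1 animal left out and -0.52 with no filter, where it passed (edgeR adjusted p 4.4e-06). In Malat1 ASO it was -0.17 to 0.088 with 1 animal left out. Genes other than Malat1 numbered 6 (OTV:Malat1), 6 (anti-TfR:Malat1), 4 (Malat1 ASO) and 14 (OTV:Malat1 against anti-TfR:Malat1) with no filter. In the last comparison they numbered 1 under DESeq2, with only the groups compared and with the replicate block, and 0 to 1 with 1 animal left out (1, Wwox, without anti-TfR:Malat1 replicate 5). Genes that changed differently between clusters numbered 4, 2, 1 and 2 with no filter, and 0 to 1, 0 to 1, 0 to 1 and 0 to 3 with 1 animal left out. The counts above 0 came without OTV:Malat1 replicate 2 or 3, saline replicate 2, saline replicate 3, and OTV:Malat1 replicate 1, 2 or 3, in the same order. The cause was not tested.

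The Malat1 difference between clusters in anti-TfR:Malat1 was 0.20 without doublet calls (exact p 0.0190) and 0.093 to 0.16 with 1 animal left out, with an exact p of 0.0238 without saline replicate 3 and 0.0476 without anti-TfR:Malat1 replicate 5. Among nuclei of 2000 to 2500 UMIs, a setting added after the data had been seen, the Malat1 difference between clusters was -0.20 in OTV:Malat1 against saline and -0.30 against anti-TfR:Malat1. The low-Malat1 share of nuclei was higher by 30.5 points in anti-TfR:Malat1 against saline and by 62.7 between the conjugates (OTV:Malat1 minus anti-TfR:Malat1) within batches, where the design allows no exact p under 0.05. With 1 animal left out it was 25.3 to 35.0, 54.6 to 64.1 and, in Malat1 ASO, -4.54 to 10.7. Without any of saline replicates 1 to 3 the first had an exact p of 0.0714, and without any OTV:Malat1 animal the second had 0.0714, there the smallest possible. The share in the third cluster differed by -5.17 to 0.085 in Malat1 ASO, the highest without saline replicate 1. Genes higher in all 17 animals numbered 50 at 1500 to 3000 UMIs and 150 against the largest cluster alone, and lower genes 50 at 1500 to 3000 UMIs.

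Values near 0 of the named genes changed sign, none past the threshold. Without doublet calls these were Mog in OTV:Malat1 (0.0041), Neat1 (0.0014) and Mog (-0.028) in anti-TfR:Malat1, and Mbp (0.014) and Mog (0.032) in OTV:Malat1 against anti-TfR:Malat1. With batch as a block they were Neat1 (0.0074) and Mog (-0.011) in anti-TfR:Malat1 and Mbp (0.0053) in OTV:Malat1 against anti-TfR:Malat1. Mog in anti-TfR:Malat1 was -0.00060 under DESeq2, -0.0027 with Malat1 left out of library sizes and -0.012 with no filter, and St18 in Malat1 ASO was -0.0084 with no filter and -0.011 with all labels. With 1 animal left out, Mbp was -0.13 to 0.037, -0.11 to 0.017, -0.092 to 0.040 and -0.079 to 0.082, and Mog -0.084 to 0.078, -0.059 to 0.090, -0.063 to 0.080 and -0.084 to 0.052 in the 4 comparisons. Neat1 and Tfrc in anti-TfR:Malat1 were -0.10 to 0.069 and -0.18 to 0.088, and Neat1 and St18 in Malat1 ASO -0.018 to 0.15 and -0.036 to 0.026.

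Pairing by replicate number was weak. Over 21 pairs with the same number the correlation of deviations from group means was -0.13 to 0.24 (median 0.00), and 5 were over 0.1. Over 85 pairs of different numbers the median was -0.01, with 11 over 0.1. Between saline and Malat1 ASO, where the number is also the batch, the correlation was 0.20, -0.10, 0.11 and 0.15. Over 27 pairs of the same batch the median was 0.08, with 8 over 0.1, against -0.02 over 79 pairs of different batches, also with 8. With the replicate block Malat1 was -2.92 in OTV:Malat1, -0.35 in anti-TfR:Malat1, -0.06 in Malat1 ASO and -2.57 between the conjugates, Tfrc 0.12 and St18 -0.0061 in anti-TfR:Malat1. The precision for genes of low count was limited by 3 OTV:Malat1 animals and by samples of as few as 117 nuclei.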
